A study of Rattus norvegicus with 113 samples.

Results

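Sham surgery alone was compared with no surgery in the cortex of rats killed 6 months later. The comparison held 8 of the 113 arrays of the series, 4 labelled Sham and 4 labelled Naive, chosen by their sample labels. All rats were adult male Sprague-Dawley animals. The naive rats had received no anesthesia and no handling. The sham rats had been anesthetized with isoflurane, the scalp had been cut, a hole had been trephined in the skull and a syringe hub bonded over the dura, and no fluid pulse had been delivered. The traumatic brain injury (TBI) rats of the same interval, 4 in number, had the same surgery followed by a severe fluid-percussion injury and served here only to estimate the spread and to be set beside the other groups. Each array held total RNA of a piece of cortex from a separate rat, so its cells could not be told apart, and fewer cells of a type and less RNA per cell cannot be told apart either. The 4 naive arrays lay on one side of a slide and the 4 sham arrays on the other side of the same slide, so the side of the slide and the surgery cannot be told apart.

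A sham operation is the usual control of an injury study because it carries the anesthesia, the skin wound and the bone defect without the blow to the brain. Opening the skull can irritate the meninges and the cortex beneath, where microglia, the resident phagocytes of the brain, and astrocytes, which support synapses and wall off damage, are known to answer a disturbance with complement proteins, antigen presentation molecules and intermediate filaments. Neurons answer activity and stress with immediate early genes and with neurotrophins, the secreted proteins that sustain synapses and survival. The question here was which of these programs differed between sham and naive cortex when 6 months had gone by.

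The tissue was checked against lists of regional markers. All 15 excitatory neuron genes on the array were well above background, the scanner software's own detection mark, on all 8 arrays. Tbr1, a transcription factor of cortical projection neurons, was 2.14 log2 units higher than in the hippocampus of the same interval, and 13 of 19 cortical layer genes were detected on all 8 arrays. The list as a whole did not set the cortex apart from the hippocampus, with 9 of its genes higher and 10 lower in the cortex and a median difference of -0.13. Lamp5 was 2.82 higher in the cortex, whereas Bcl11b, Nr4a2 and Crym differed by -1.87, -1.87 and -1.83. Of 15 choroid plexus genes, 5 (Kl, Folr1, Clic6, Cldn2 and Slc4a5) were not well above background on any of the 8 arrays and 5 (Ttr, Kcnj13, Aqp1, Trpv4 and Enpp2) were on all 8, of which Kcnj13 and Aqp1 were 3.81 and 2.05 higher than in the hippocampus. Ttr, the transthyretin that choroid plexus secretes, stood at 3.12 ± 1.61 (SD, n = 4) in naive and 3.20 ± 2.54 in sham cortex. Detection covered 51.1% to 58.9% of probes on the naive arrays and 49.5% to 57.5% on the sham arrays, or 55.6% ± 3.30 against 53.6% ± 3.33 (SD, n = 4, exact permutation test, two-sided p = 0.429, where 0.0286 is the smallest p that 4 against 4 allows). That test takes no account of slide position. At each of the 4 positions sham was below naive, at 52.9%, 54.3%, 57.5% and 49.5% against 55.4%, 56.9%, 58.9% and 51.1%. The median processed signal was 58.0 to 64.6 on the naive arrays and 49.0 to 56.9 on the sham arrays, so the groups did not overlap in brightness before each array was centred on its own median. Pairs of arrays of different groups correlated at 0.981 to 0.989 across probes, and pairs within a group at 0.983 to 0.992.

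No transcript passed the correction for multiple tests. Of 22973 probes tested with limma (empirical Bayes, Benjamini-Hochberg adjustment), 0 (0%) had an adjusted p under 0.05, and 1591 (6.93%) had an unadjusted p under 0.05. The lowest adjusted p was 0.0791, shared by 10 probes. Under 0.1 were 37 probes, 35 of them lower in sham. Leaving out sham replicate 1 gave 4 probes with an adjusted p under 0.05 and leaving out sham replicate 2 gave 14, and leaving out any other array gave 0. The study's methods ask for a 1.4-fold change and p under 0.05 without correction. By those thresholds 767 probes (3.34%) differed, 112 (0.488%) of them higher and 655 (2.85%) lower in sham cortex. Among the 21664 probes detected on every array of both groups, 88 were higher and 399 lower. Without the filter for detected probes the balance turned: over all 45598 probes, 2205 differed, 1248 higher and 957 lower. In the text below, "past the thresholds" refers to these 2 criteria without correction. The precision was enough to bound most genes: for 7270 of 10827 named genes (67.1%) the 95% interval of the difference lay within 1.4-fold in either direction, and for 10169 (93.9%) within 2-fold.

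The transcripts that were lower in sham cortex were mostly dim ones. Among the 5744 probes of lowest mean level, 435 were lower and 77 higher past the thresholds. Among the 5743 of highest mean level these counts were 20 and 1. A probe was tested if it was well above background on every array of at least one group, and 256 of the 655 lower probes entered through the naive group alone, whereas 399 had been detected on every array of both groups. Probes with a gene name made up 59.5% of those tested, and 1.27% of them were lower past the thresholds, against 6.27% of probes for predicted RefSeq transcripts without a name and 7.07% of those for GenBank sequences and expressed sequence tags. The lower brightness of the sham arrays, the slide side and the surgery moved together, and their parts in this count were not tested.

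**Figure D1:**
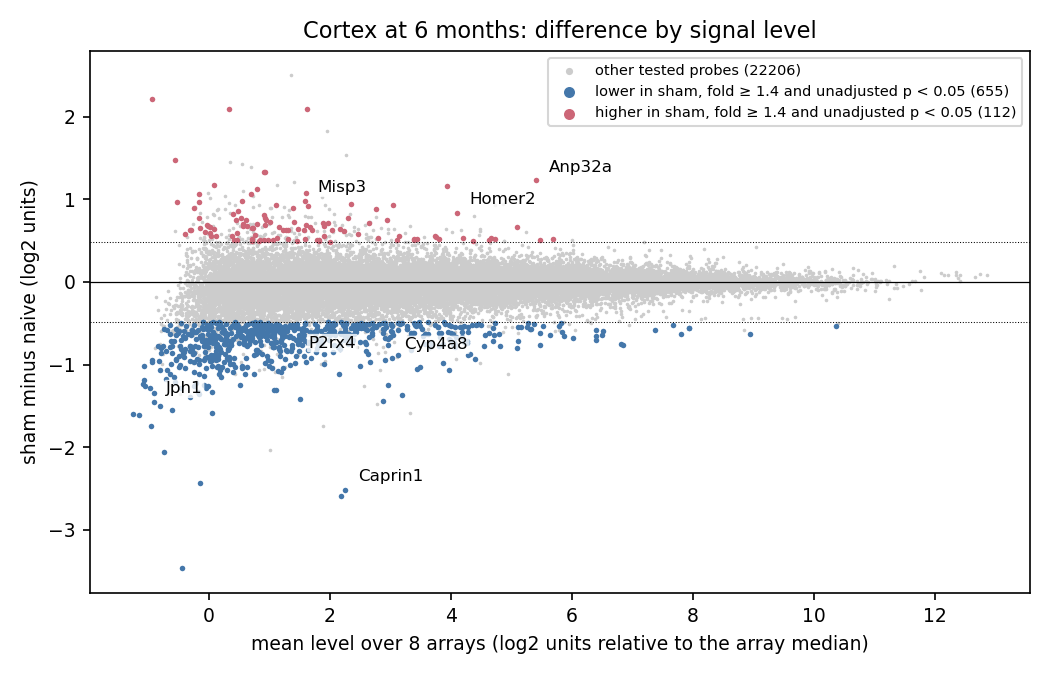
Difference between sham and naive cortex (vertical axis, log2 units) against mean level over 8 arrays (horizontal axis, log2 units relative to the array median), 1 point per tested probe; dotted lines mark a fold change of 1.4. The 655 blue probes lower in sham lie mostly at low levels, and the 112 red probes higher in sham are fewer at every level.

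With 1 probe taken for each of the 10827 named genes, 49 (0.453%) were higher and 114 (1.05%) lower in sham past the thresholds. Of the 49, 9 entered the test through the sham group alone, and of the 114, 39 through the naive group alone. The 4 sham arrays lay entirely above the 4 naive arrays in 95 genes (0.877%) and entirely below in 252 (2.33%). Both criteria together were met by 15 genes on the higher side and 62 on the lower side. Differences below are sham mean minus naive mean, levels are log2 units relative to the array median, and every p is limma's, adjusted over all 22973 probes unless called unadjusted. Genes were named for these differences, so that the groups do not overlap is how they were chosen and not a further result.

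The largest difference was that of Caprin1, a cell cycle associated RNA-binding protein of neuronal RNA granules and stress granules. Its level was 3.84, 4.0, 3.23 and 2.98 in the 4 naive rats and 0.92, 1.25, 1.13 and 0.69 in the 4 sham rats. Every naive rat stood far above every sham rat, with a difference of -2.52 ± 0.39 (SE, adjusted p = 0.0791), or 5.72-fold. The TBI rats of the same interval were split, with 3 at 1.28, 1.09 and 1.27 and 1 at 3.12.

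The Caprin1 probe had this split throughout the cortex. Over the 60 cortical arrays of this design, 30 were below 2, 29 were above 2.5 and 1 lay between, bounds that were set after the values were seen. Among the low arrays was sham replicate 3 of the 2 week interval, at -1.71. Its median processed signal was 1806 and 93.0% of its probes were well above background, so its centred level cannot be compared with the others. At 24 hr the naive rats stood at 1.00, 1.16, 1.44 and 3.83, and at 1 year at 2.76, 3.67, 2.81 and 0.86. Both levels thus occurred within naive groups. Among the sham groups, 1 of the 4 rats was high at 24 hr, with 3.31, and 1 of the 4 was low at 1 year, with 1.47. The cortex at 6 months was the interval at which the naive rats were all high and the sham rats all low. What set the level of a rat was not tested.

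Several enzymes and membrane proteins were lower in sham. Cyp4a8, a fatty acid hydroxylase of the cytochrome P450 family, stood at 3.47, 3.29, 3.79 and 3.38 in naive and 2.64, 2.85, 2.62 and 2.15 in sham cortex, a difference of -0.92 ± 0.17 (adjusted p = 0.1). P2rx4, the ATP-gated cation channel known for its role in activated microglia, stood at 1.66, 1.93, 1.84 and 2.12 in naive and 1.05, 0.89, 0.96 and 1.07 in sham cortex. Its sham levels were confined to a narrow range about 1 unit, and the difference was -0.90 ± 0.18 (adjusted p = 0.128). Pdia2, a protein disulfide isomerase of the endoplasmic reticulum, differed by -0.90 ± 0.26 (adjusted p = 0.346), and Tstd1, a thiosulfate sulfurtransferase, by -0.97 ± 0.23 (adjusted p = 0.215). The centrosomal protein Cep44 differed by -0.93 ± 0.21 on one probe and by -0.01 on a second, so the 2 probes of that gene disagreed. Cep95, another centrosomal protein, and Fam89a were well above background on all 4 naive arrays but on only 1 and 2 of the 4 sham arrays, and were tested because of the naive group alone. Their signals, partly at background in sham, differed by -0.92 ± 0.22 and -0.85 ± 0.17 (adjusted p of 0.188 and 0.128).

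Among dimmer transcripts, 5 of the 15 lower genes were not well above background on any sham array, and only a bound can be given, the naive mean against, on each sham array, the higher of the lowest detected signal and the probe's own signal. These probes were tested because the naive group was detected, so the p values beside the bounds compare naive signals with sham signals at background and do not bear on the size. Jph1, a junctophilin that ties the plasma membrane to the endoplasmic reticulum, was at least 1.41-fold lower in sham (adjusted p = 0.0821). Slc7a9, an amino acid transporter, was at least 1.28-fold lower (adjusted p = 0.41) and Kif20b, a kinesin of cell division, at least 1.20-fold lower (adjusted p = 0.395). Akr1b7, an aldose reductase, and C8h19orf38 were each at least 1.16-fold lower. Pcdhb6, a clustered protocadherin of synaptic adhesion, was detected on all 4 naive and 2 of the 4 sham arrays and differed by -1.55 ± 0.60 (adjusted p = 0.583). Its sham levels were scattered, at -0.37, -0.36, -2.45 and -2.32, against -0.26 to 0.39 in naive cortex. Tnfsf13b, the B cell survival factor BAFF, was likewise detected on 2 of the 4 sham arrays and differed by -0.84 ± 0.37 (adjusted p = 0.685). Pcdhb6 and Tnfsf13b were tested because of the naive group alone, so their differences are no exact sizes.

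Among the transcripts that were higher in sham, Anp32a led. It encodes an acidic nuclear phosphoprotein that binds histones and inhibits their acetylation. Its level was 4.78, 4.86, 4.82 and 4.71 in the naive rats and 6.32, 6.14, 5.78 and 5.86 in the sham rats. The naive values were nearly identical, and the difference was 1.23 ± 0.21 (adjusted p = 0.0821), or 2.35-fold. Misp3, named for its likeness to a mitotic spindle protein, stood at 1.13, 1.1, 1.15 and 0.97 in naive and 1.66, 2.82, 1.93 and 1.87 in sham cortex, with sham replicate 2 well above its group. The difference was 0.98 ± 0.20 (adjusted p = 0.135).

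Homer2, Ntf3, Rasgrf2, Sema3b and Rgs16 were also among the 15 higher genes. The lists that such genes belong to had medians near 0: of 27 genes of synaptic vesicles and the postsynaptic density 1 was higher and 0 lower past the thresholds (median 0.02), of 16 neurotrophin and growth factor genes 1 was higher and 1 lower (median 0.06), and of 22 axon guidance genes 0 were past them (median 0.01). Homer2, a scaffold of the postsynaptic density that binds metabotropic glutamate receptors, stood at 3.73, 3.84, 3.64 and 3.50 in naive and 4.47, 4.61, 4.13 and 4.85 in sham cortex, a difference of 0.84 ± 0.23 (adjusted p = 0.297). Ntf3, the neurotrophin-3 ligand of the TrkC receptor, stood at 0.67, 0.72, 0.21 and 0.67 in naive and 1.16, 1.24, 1.51 and 1.35 in sham cortex, a difference of 0.75 ± 0.15 (adjusted p = 0.135). Naive replicate 3 was the lowest of the 8. Rasgrf2, a calcium-activated exchange factor for Ras, stood at 0.46 to 0.76 in naive cortex and at 1.94, 1.71, 0.81 and 1.05 in sham cortex, where 2 rats were clearly higher and the other two lay just above the naive range. Sema3b, a secreted axon guidance cue, and Rgs16, which shortens G protein signals, differed by 0.51 ± 0.18 and 0.68 ± 0.21. Rgs16 was detected on 3 of the 4 naive arrays and tested because of the sham group alone, so its difference is no exact size.

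Other genes of the 15 higher ones were of mixed function. Chit1, the chitinase of activated macrophages, stood at 2.49, 2.16, 2.28 and 2.23 in naive and 3.51, 2.58, 3.29 and 2.62 in sham cortex, a difference of 0.71 ± 0.21 (adjusted p = 0.369). Pex11a, which divides peroxisomes, had the tightest groups of the set, with 3.94 ± 0.08 (SD, n = 4) in naive and 4.47 ± 0.03 in sham cortex (difference 0.53 ± 0.12 SE, adjusted p = 0.148). The keratins Krt2 and Krt71 differed by 0.64 ± 0.24 and 0.63 ± 0.20, Id1, an inhibitor of basic helix-loop-helix factors, by 0.51 ± 0.17, and Cyb561a3, a lysosomal ferric reductase, by 0.52 ± 0.17. Calml4, a calmodulin-like protein, differed by 0.71 ± 0.23 between sham and naive, with a TBI mean of 2.58 far above both. Vwce, detected on 3 of the 4 naive arrays and tested because of the sham group alone, differed by 0.68 ± 0.15, which is no exact size.

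Of these 30 genes with the largest differences, 20 changed in size by over 1.5 times when the background was modelled afresh with the normexp method, which adds an offset of 50, close to the median signal of these arrays. Caprin1 was then -2.06, Anp32a stayed within 1.12 to 1.31 over all settings, Misp3 was 0.45, Cep95 -0.49, Fam89a -0.25 and Jph1 -0.33. Leaving out naive replicate 4 moved 3 of the 30 as far: Krt2 to 0.37, Kif20b to -0.81 and C8h19orf38 to -0.71.

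**Figure D2:**
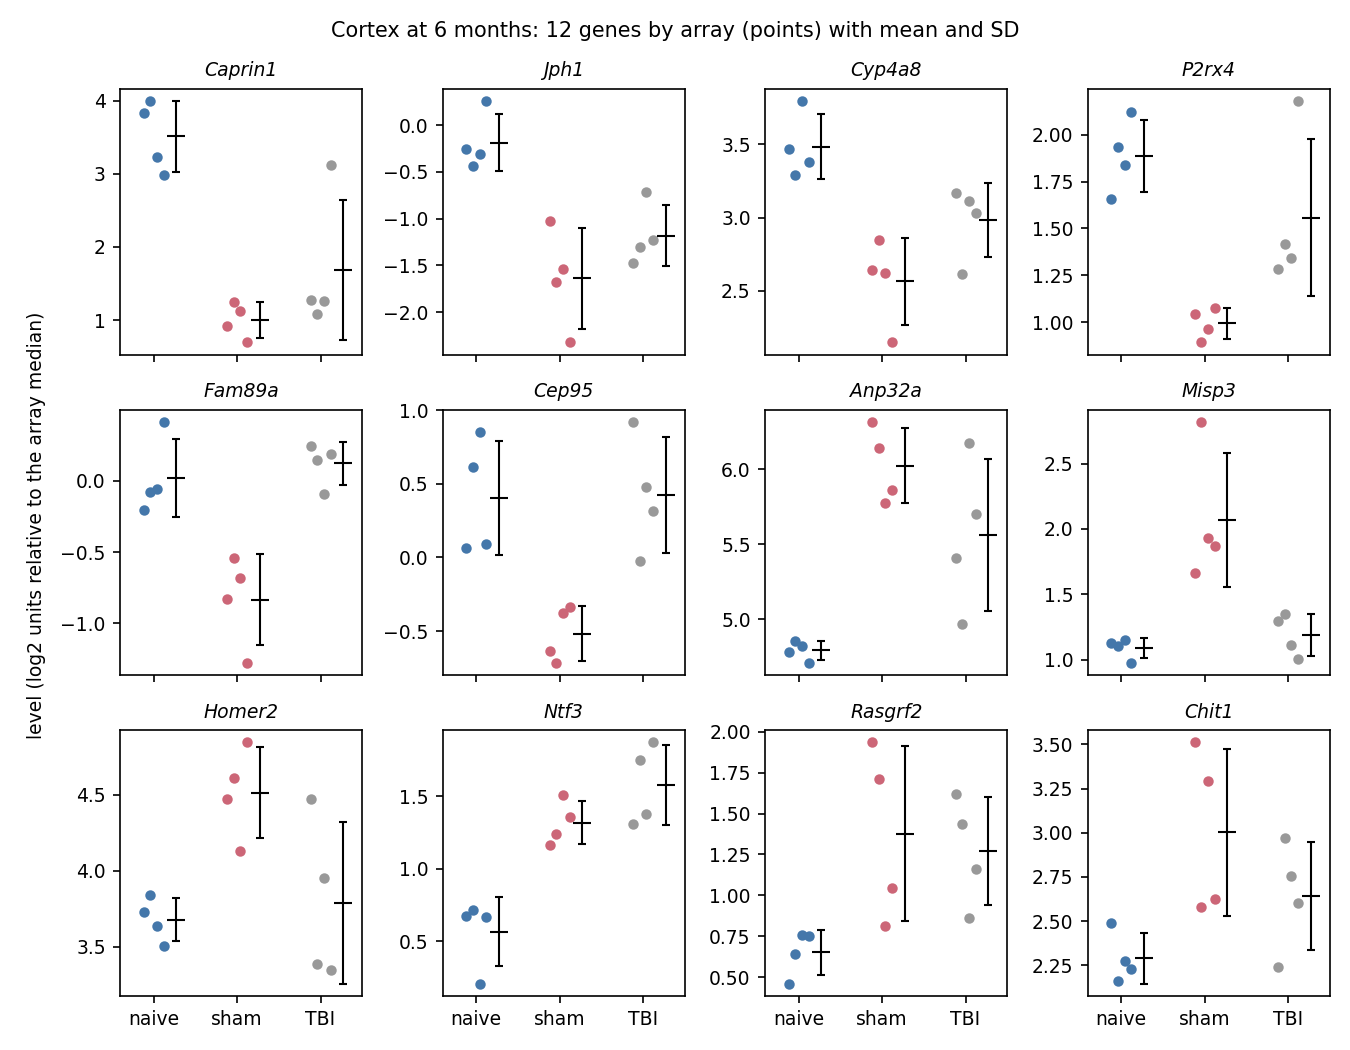
Levels of 12 genes on each array of the cortex at 6 months (vertical axes, log2 units relative to the array median) for naive (blue), sham (red) and TBI (grey) rats, with the mean and SD of 4 arrays. Naive and sham points do not overlap in any panel, since the genes were chosen that way; the TBI points of Caprin1 hold 1 high and 3 low arrays, at 3.12 and 1.09 to 1.28.

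Most immune gene lists had medians slightly below that of all genes. Above it were the neutrophil list, by 0.17 over 4 genes, the acute phase list, by 0.05, leukocyte adhesion, by 0.02, and MHC class I, by 0.01. Each list is described by its members measured, how many were past the thresholds, and its median difference less that of all named genes, which was -0.002. Over all named genes, 0.453% were higher and 1.05% lower past the thresholds, so counts of 0 or 1 in a short list say little. All 6 measured members of the MHC class II list, which presents antigen to helper T cells, were lower in sham and 0 of 6 were past the thresholds, with a median of -0.44. RT1-Db1, RT1-Da and the invariant chain Cd74 differed by -0.65 ± 0.82, -0.61 ± 0.91 and -0.58 ± 0.83, smaller than their errors. The mean level of the list was 4.48, 3.20, 3.29 and 5.93 in the naive rats and 3.91, 4.12, 3.85 and 3.37 in the sham rats, so that naive replicate 4 was the highest and naive replicates 2 and 3 the lowest of the 8. With each array left out in turn, the median ran from -0.92 to 0.24.

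The complement list had 19 measured members, of which 1 was lower and 0 higher past the thresholds, with a median of -0.22. That gene was Cd46, the membrane cofactor protein of the complement system, at 0.31 ± 0.38 (SD, n = 4) in naive and -0.44 ± 0.34 in sham cortex (adjusted p = 0.348). Cd46 was detected on 3 of the 4 sham arrays and tested because of the naive group alone, so its difference is no exact size. The central component C3 differed by -0.99 ± 0.70 and the initiating subunits C1qa, C1qb and C1qc by -0.30 ± 0.34, -0.36 ± 0.27 and -0.48 ± 0.31, and C3ar1, the receptor of the C3a fragment, by 0.26. Naive replicate 4 had the highest mean of the list, at 4.12, and the other 7 arrays lay between 3.29 and 3.56. The SD of C3 was 1.80 in naive and 0.22 in sham cortex, and without naive replicate 4 its difference was -0.10 and that of C1qa 0.10. With an array left out, the median of the list ran from -0.30 to 0.01. C4bpb, a soluble complement inhibitor outside the list, had 1 of the lowest adjusted p values (difference -0.62 ± 0.11, adjusted p = 0.0821).

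The resident microglia list had a median of -0.13, with 11 of 15 members lower and 0 past the thresholds. Itgam, the CD11b integrin, differed by -0.68 ± 0.51, Aif1, which encodes Iba1, by -0.30 ± 0.22 and Trem2, a lipid receptor, by -0.30 ± 0.22, while P2ry12 and Csf1r differed by -0.02 and 0.02. These values rested on naive replicate 4: Aif1 stood at 6.17, 6.23, 6.15 and 7.21 in naive and 5.99 to 6.29 in sham cortex, and without that array Aif1 differed by -0.04, Itgam by -0.26 and Trem2 by -0.15, and the median of the list was 0.00. The reactive microglia list had a median of -0.03 over 17 genes, and Cd68, a lysosomal protein, differed by -0.56 ± 0.63. Cd68 stood at 1.1, 1.11, 0.90 and 3.80 in naive and 0.96 to 1.43 in sham cortex, so that without naive replicate 4 its difference was 0.13 and the median of the list 0.02. The macrophage and monocyte list had a median of -0.12 over 10 genes. In the T cell list only 5 of 15 genes were measured, with a median of -0.25. Chemokines and cytokines had a median of -0.05 over 12 genes, and Tnf and Il1a, inflammatory cytokines, differed by -0.16 ± 0.30 and -0.03 ± 0.50. In the Toll-like receptor and NF-kB list 1 of 15 genes was past the thresholds. It was Traf6, an adaptor of these receptors, detected on 1 of the 4 sham arrays and tested because of the naive group alone. It stood at 0.48, -0.12, 0.88 and 0.79 in naive and 0.99, -0.94, -1.26 and -2.18 in sham cortex. Sham replicate 1 was the highest of the 8 and the groups overlapped. Its signals, mostly at background in sham, differed by -1.35 ± 0.58 (adjusted p = 0.662), which is no exact size.

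Most glial and vascular lists had medians above that of all genes. Astrocyte genes were higher in 14 of 16 cases, with a median of 0.13 and 0 past the thresholds. Their list mean overlapped between the groups, at 6.67 to 6.94 in naive and 6.87 to 7.10 in sham cortex. Gfap, the intermediate filament of reactive astrocytes, stood at 4.39 ± 0.18 (SD, n = 4) in naive, 5.33 ± 0.97 in sham and 6.54 ± 1.59 in TBI cortex, a sham difference of 0.94 ± 0.66 (SE, adjusted p = 0.968). The water channel Aqp4 differed by -0.06 ± 0.21, and Vim and Cd44, which reactive astrocytes also make, by 0.19 ± 0.39 and 0.21 ± 0.38. Oligodendrocyte and myelin genes were higher in 17 of 18 cases, with a median of 0.17 and 0 past the thresholds. Mbp, the myelin basic protein, differed by 0.19 ± 0.24, and Mag, a myelin adhesion protein, by 0.31 ± 0.32. The list mean was 5.74 to 6.63 in naive and 5.77 to 6.88 in sham cortex, so the groups overlapped almost entirely.

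Pericyte and smooth muscle genes had the highest median of the 48 lists, 0.21, with 12 of 13 members higher and 0 past the thresholds. The list mean was 3.36 to 3.85 in naive and 3.59 to 4.05 in sham cortex, so the groups overlapped. The contractile genes Acta2, Myh11 and Cnn1 differed by 0.44 ± 0.31, 0.41 ± 0.34 and 0.39 ± 0.51, and the pericyte receptor Pdgfrb by 0.07 ± 0.14. Endothelial genes had a median of 0.08 and meningeal and fibroblast genes 0.09. Antioxidant and metallothionein genes were higher in 18 of 21 cases, with a median of 0.10 and overlapping list means, 6.18 to 6.45 in naive and 6.37 to 6.51 in sham cortex. Glucocorticoid response genes, which follow stress hormones, had a median of 0.07 over 19 genes with 0 past the thresholds, and Fkbp5 differed by 0.06 ± 0.10. In all, 16 of the 48 lists had a median at least 0.1 away from that of all genes, 8 on either side.

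**Figure D3:**
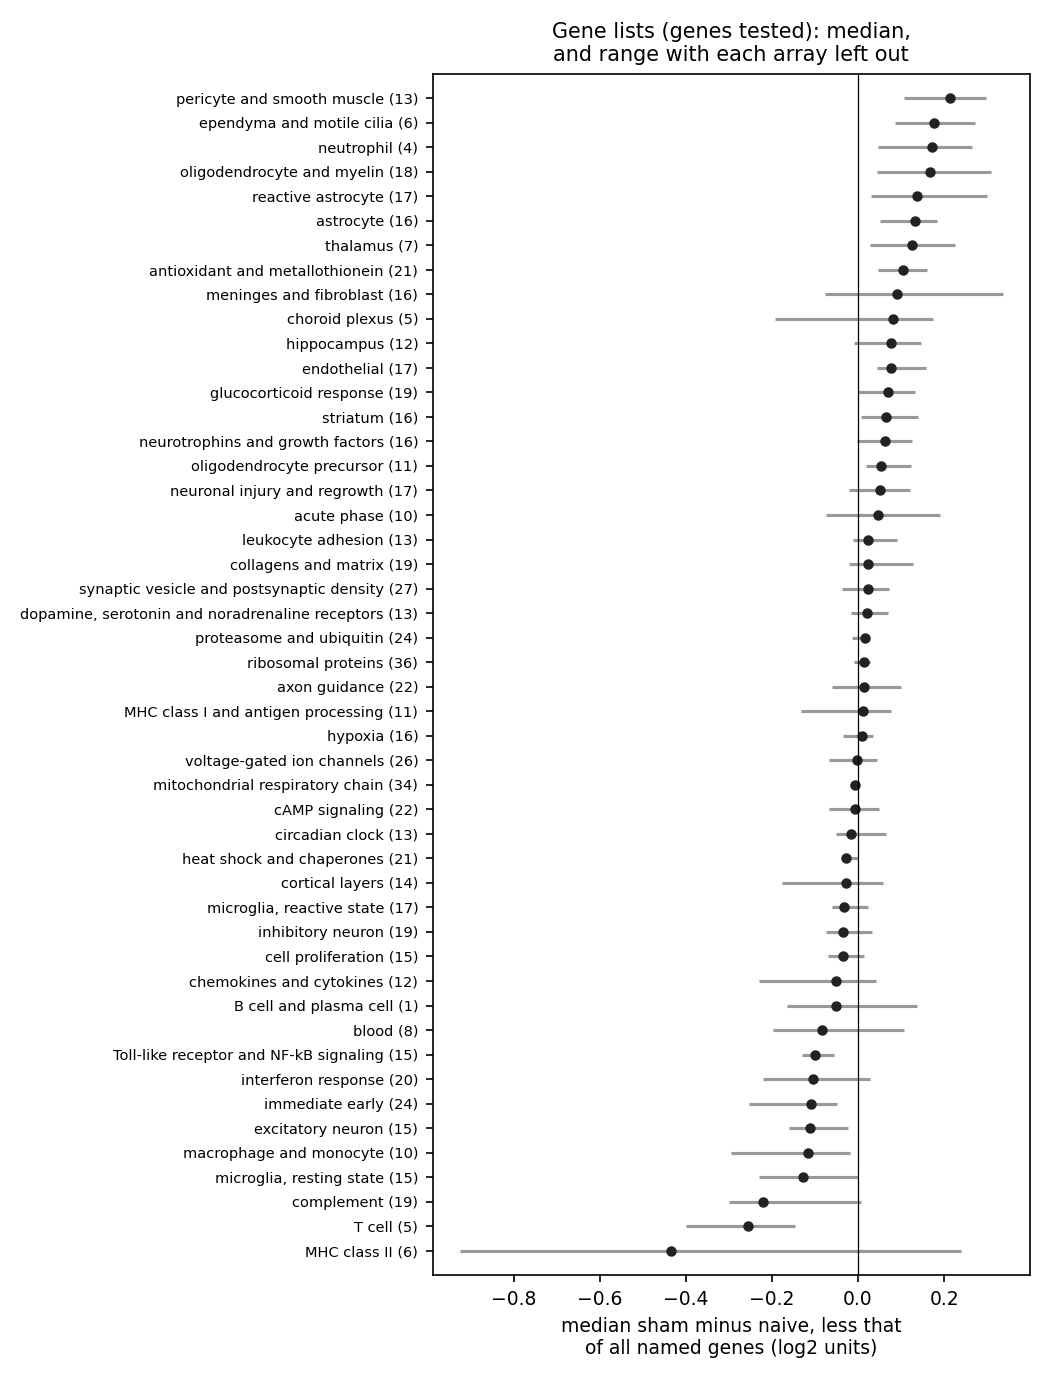
Median difference between sham and naive cortex for each of 48 gene lists, less that of all named genes (horizontal axis, log2 units; number of genes tested in brackets); points are the medians over 8 arrays and lines the range when each array was left out in turn. The pericyte and smooth muscle list is highest at 0.21, and the MHC class II list is lowest at -0.44 with a line from -0.92 to 0.24.

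Most genes of the neuronal lists below were within 1 SE of no difference. Beyond it lay 8 of 24 immediate early, 9 of 19 inhibitory neuron, 5 of 15 excitatory neuron and 7 of 26 ion channel genes. The share of all named genes beyond 1 SE was not counted, so these counts are a description and no result about neuronal genes. Of the 24 immediate early genes, which fire with neuronal activity, 19 were lower in sham and 1 was past the thresholds, with a median of -0.11. That gene was Bdnf, the brain-derived neurotrophic factor, at 1.89, 2.04, 2.39 and 2.52 in naive and 1.76, 1.72, 1.33 and 2.08 in sham cortex (difference -0.49 ± 0.18, adjusted p = 0.552). Its groups overlapped. Ntf3, which was named because its groups did not overlap, went the other way. Nr4a1, Arc and Fos differed by -0.58 ± 0.40, -0.42 ± 0.39 and -0.29 ± 0.36, and Egr1 by less than 0.01. The list mean was highest of all 8 arrays in sham replicate 1, at 4.19, and lowest in sham replicate 3, at 3.38.

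Of 19 inhibitory neuron genes, 3 were lower past the thresholds, where 1.05% of all named genes were, and the list median was -0.03. Of the 19, 9 were above 0, up to 0.31, and 10 below. The sham arrays lay entirely above the naive arrays in 1 of them and entirely below in 0, against 0.877% and 2.33% of all named genes. Cort, the neuropeptide cortistatin, differed by -0.59 ± 0.24, Tac1, the substance P precursor, by -0.55 ± 0.24 and Gad2, a GABA-synthesizing enzyme, by -0.49 ± 0.19, with adjusted p of 0.606, 0.7 and 0.595 and overlapping groups in each. Sst, which marks a large class of interneurons, differed by -0.32 ± 0.14 (unadjusted p = 0.0384). Gad1, the other GABA-synthesizing enzyme, differed by 0.05 ± 0.10 and Pvalb, the marker of fast-spiking interneurons, by 0.00 ± 0.13. The excitatory neuron list had a median of -0.11 over 15 genes with 0 past the thresholds. Gria2, an AMPA receptor subunit, differed by -0.32 ± 0.13 with groups that did not overlap, and Slc17a7, the vesicular glutamate transporter, by 0.07 ± 0.23. Of 26 voltage-gated ion channels, 1 was past the thresholds, the sodium channel Scn8a (difference -0.65 ± 0.18, adjusted p = 0.286), at 1.91, 1.68, 2.03 and 1.99 in naive and 1.54, 1.54, 1.20 and 0.73 in sham cortex.

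Lists of housekeeping function moved little. The median was -0.01 over 34 respiratory chain genes, 0.01 over 36 ribosomal protein genes and 0.02 over 24 proteasome and ubiquitin genes, with 0 past the thresholds in each.

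**Figure D4:**
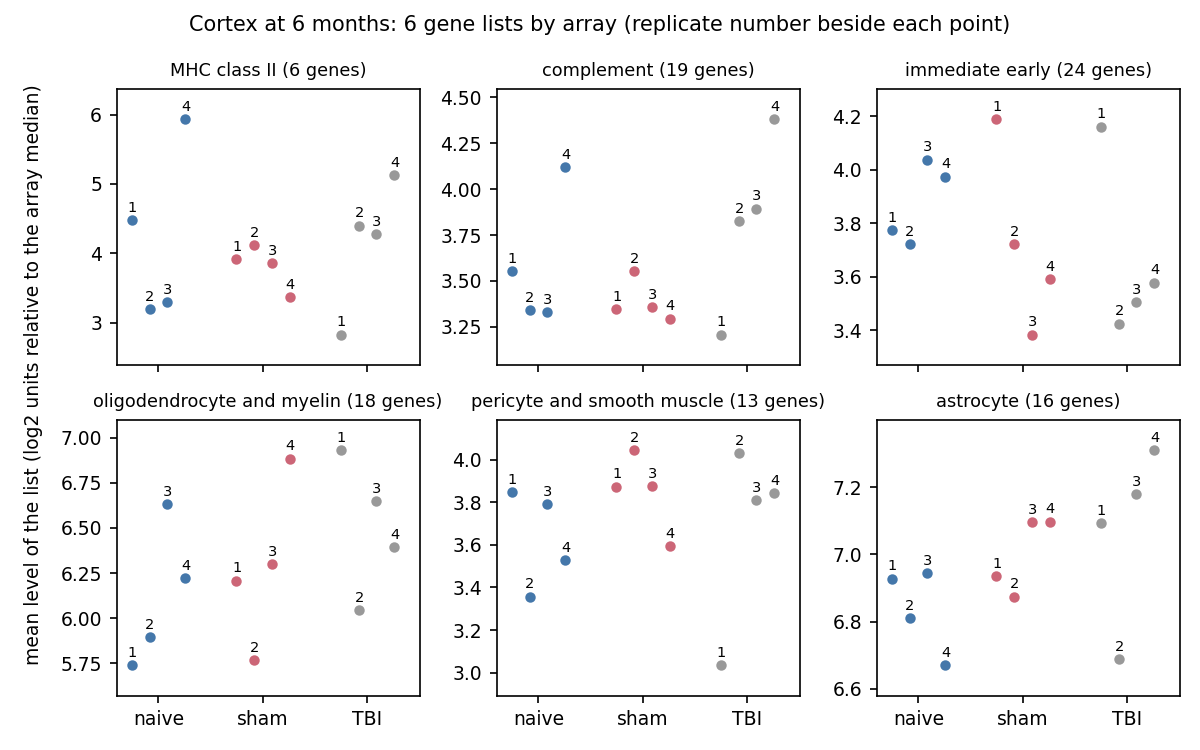
Mean level of 6 gene lists on each array of the cortex at 6 months (vertical axes, log2 units relative to the array median); colours separate naive (blue), sham (red) and TBI (grey) rats and digits give the replicate. Naive replicate 4 stands highest among naive and sham arrays for MHC class II, at 5.93, and for complement, at 4.12.

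The TBI rats were set beside these values, on arrays of another slide and against the same naive rats. Of the 655 probes lower in sham, the TBI mean was also below the naive mean in 623, with a median of -0.66 in sham and -0.53 in TBI. Of the 112 probes higher in sham, the TBI mean was above the naive mean in 87, with medians of 0.65 and 0.31. Both comparisons share the naive rats, so these counts are a description. Among the genes with the largest differences the TBI groups went several ways. Cep95 and Fam89a were near the naive level in TBI cortex, with TBI minus naive differences of 0.02 and 0.10. Misp3 and Homer2 differed from naive by 0.10 and 0.11 in TBI, Ntf3 by 1.01 and Sema3b by 0.81.

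The hippocampus of the same interval came from rats that carry the same animal numbers in the deposited names, so its values are not independent of the cortical ones, and its naive and sham arrays also shared a slide. There 728 of 20991 probes (3.47%) had an adjusted p under 0.05. Naive replicate 2 of the hippocampus stood apart, with 72.5% of probes well above background against 41.2% for the lowest of its group. Of the 30 genes with the largest cortical differences, 18 were tested in the hippocampus, 14 of them with the same sign and 4 with the opposite sign. Caprin1 stood at 4.6, 3.58, 3.74 and 3.54 in naive and 1.35, 1.45, 1.15 and 1.33 in sham hippocampus, a difference of -2.54 ± 0.32 (adjusted p = 0.000147). The same rats were thus high or low in both tissues, and TBI replicate 4, high in the cortex, was high in the hippocampus as well, at 3.47, where the other TBI rats were at 1.43 to 1.68.

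Rasgrf2 and Homer2 were the other two genes past an adjusted p of 0.05 with the same sign in the hippocampus. Homer2 stood at 4.27, 3.39, 4.06 and 4.31 in naive and 4.81, 4.97, 5.0 and 4.79 in sham hippocampus (difference 0.88 ± 0.23, adjusted p = 0.0316). Rasgrf2 gave 1.30 ± 0.26 (adjusted p = 0.0046), but was well above background on only 2 of the 4 naive hippocampal arrays. It was tested there because of the sham group alone, so this is no exact size. Anp32a did not follow: its hippocampal difference was 0.03 ± 0.28, although its cortical minus hippocampal difference of 1.20 ± 0.38 had an adjusted p of 0.157 with each array centred on its median and of 0.0143 at the 75th percentile.

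The difference between cortex and hippocampus passed the adjusted threshold in 122 of 20693 probes (0.59%), all 122 lower in the cortex. Among them were Egr1, an immediate early transcription factor, at 0.00 in the cortex against 1.77 in the hippocampus (adjusted p = 0.0173), the long noncoding RNA Miat at -0.48 against 1.26 (adjusted p = 0.00197) and the calcium channel Cacna1a at 0.15 against 1.61 (adjusted p = 0.0244). Egr1 and Cacna1a were well above background on 3 of the 4 naive hippocampal arrays. Both were tested there because of the sham group alone, so their hippocampal values are no exact sizes. With each of the 16 arrays left out in turn the call was kept in 15 cases for Egr1, 16 for Miat and 9 for Cacna1a, and Egr1 and Cacna1a lost it without the filter for detected probes (adjusted p of 0.144 and 0.159). The direction of the count rested on the scaling. The median difference over all 20693 probes was -0.12 with each array centred on its median and 0.01 at the 75th percentile, where 1280 probes passed, 774 higher and 506 lower, and without hippocampal naive replicate 2, 910 passed, 618 higher and 292 lower. Leaving out 13 of the 16 arrays in turn moved the count by over 1.5 times, from 24 without cortical naive replicate 3 to that 910.

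At 24 hr the sham and naive arrays also shared a slide, and 4561 of 23804 probes (19.2%) had an adjusted p under 0.05. The difference between the effects at 6 months and 24 hr passed in 842 of 22653 probes (3.72%), 821 higher and 21 lower at 6 months, where the median over all probes was itself 0.18. At the 75th percentile, which brought that median to 0.01, 79 passed, 65 higher and 14 lower, and after quantile normalization 30 passed, 28 higher and 2 lower. Without the filter for detected probes 7 passed, all higher. Each of the 6 genes named next lost its call under those 3 alternatives, with adjusted p of 0.0523 to 0.132, and with each of the 16 arrays left out in turn the call was kept in 3 cases for Lcn2, 7 for Ptgs2, 6 for Cartpt, 7 for Anp32a, 15 for Misp3 and 9 for Krt2. Lcn2, the iron-scavenging acute phase protein lipocalin 2, was 4.18 ± 0.82 higher in sham at 24 hr and 0.39 ± 0.44 at 6 months (adjusted p of the difference = 0.0407). At 6 months Lcn2 stood at 0.52, 1.07, 1.00 and 0.95 in naive and 1.35, 1.04, 1.49 and 1.24 in sham cortex, with overlapping groups. Ptgs2, the inducible cyclooxygenase of prostaglandin synthesis, differed by 1.43 ± 0.37 at 24 hr and -0.38 ± 0.21 at 6 months (adjusted p = 0.0338), and Cartpt, a neuropeptide precursor, by -1.93 ± 0.51 and 0.83 ± 0.38 (adjusted p = 0.0327). Ptgs2 was not well above background on every array of the groups compared, so its values are no exact sizes. Anp32a, Misp3 and Krt2 were higher in sham at 6 months by 1.49 ± 0.36, 1.25 ± 0.27 and 1.52 ± 0.35 more than at 24 hr (adjusted p of 0.0301, 0.0206 and 0.027). The count moved by over 1.5 times when any of 13 of the 16 arrays was left out, from 141 without naive replicate 1 to 1351 without naive replicate 3 of the 6 months. With slide position in the fit as a block, 12 passed, all higher at 6 months, and none of the 6 genes kept its call.

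Probes past the thresholds at 6 months and tested at 24 hr numbered 688, of which 326 (47.4%) were past them at 24 hr too, 306 in the same direction, where 4295 of all 23804 probes (18%) were past them at 24 hr, or 17.8% of those tested in both. These 326 were 8.10% of those past the thresholds at 24 hr. Cyp4a8 differed by -0.91 ± 0.21 at 24 hr (adjusted p = 0.017) and by -0.92 at 6 months, and Pdia2 by -1.27 ± 0.29 (adjusted p = 0.014) and -0.90. On both slides sham was one side and naive the other, so the shared share and the slide side cannot be told apart.

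At 1 year the naive and sham arrays lay on different slides, and 1139 of 25212 probes (4.52%) had an adjusted p under 0.05. The difference from 6 months passed in 655 of 22874 probes (2.86%), 48 higher and 607 lower at 6 months. The median processed signal at 1 year was 50.4 to 59.8 on the naive and 60.6 to 72.2 on the sham arrays. Sham was thus the brighter group at 1 year and the dimmer group at 6 months, and the part of brightness in this count was not tested. At the 75th percentile 858 passed, 202 higher and 656 lower. P2rx4 differed by 0.71 ± 0.32 at 1 year against -0.90 at 6 months (adjusted p = 0.0234), Cyp4a8 by 0.36 ± 0.19 against -0.92 (adjusted p = 0.0077), and Caprin1 by 0.36 ± 0.55 against -2.52 (adjusted p = 0.029). The call of P2rx4 was lost without naive replicate 3 or 4 or sham replicate 1 or 2 of the 1 year groups (adjusted p of up to 0.0566). That of Caprin1 was lost without naive replicate 2 or sham replicate 1 or 3 of the 6 months, or naive replicate 4 or sham replicate 1, 2 or 4 of the 1 year groups (up to 0.0695). Fam89a, detected on only 2 of the 4 sham arrays at 6 months, gave 0.32 ± 0.13 against signals that differed by -0.85 (adjusted p = 0.00354), which is no exact size. Misp3 went the other way, at -0.28 ± 0.16 against 0.98 (adjusted p = 0.00995). Of 733 probes past the thresholds at 6 months and tested at 1 year, 58 (7.91%) were past them there, 11 in the same direction, where 1523 of all 25212 probes (6.04%) were past them, or 4.51% of those tested in both. Leaving out an array moved the count of 655 by over 1.5 times in 3 cases, to 436 without naive replicate 3 and 1006 without sham replicate 4 of the 6 months, and to 432 without sham replicate 2 of the 1 year group.

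**Figure D5:**
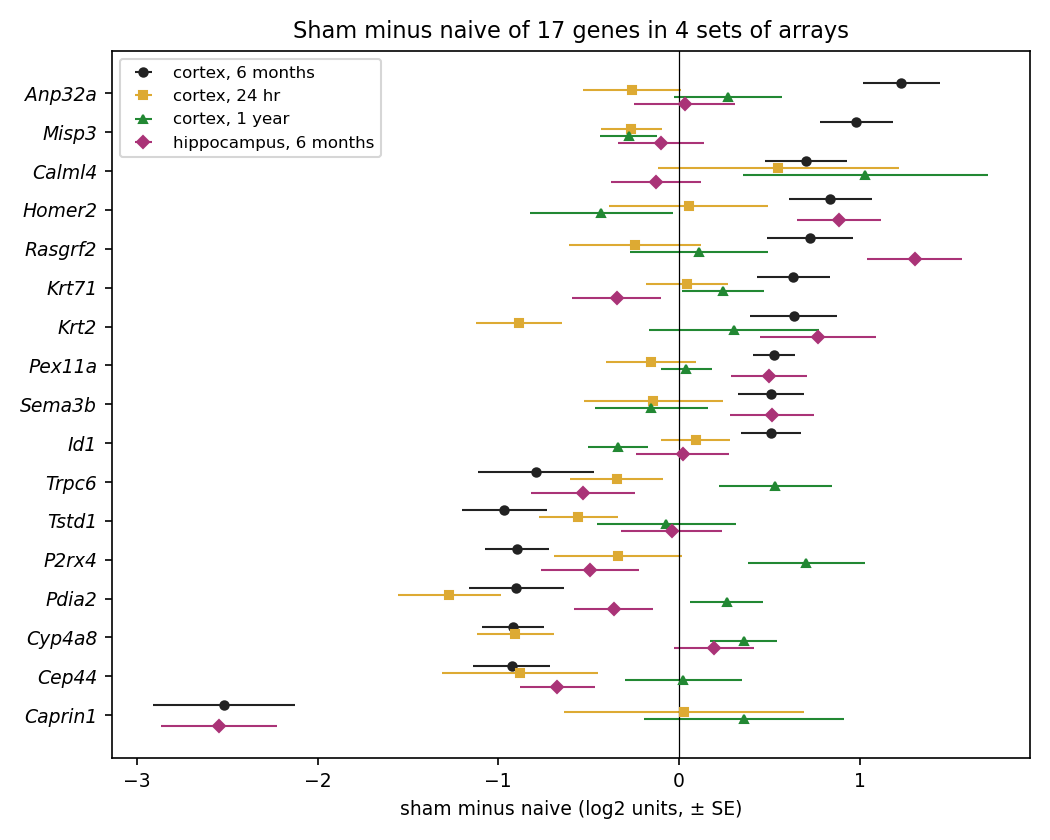
Sham minus naive difference (horizontal axis, log2 units, with SE) of 17 genes in the cortex at 6 months (black circles), 24 hr (yellow squares) and 1 year (green triangles) and in the hippocampus at 6 months (purple diamonds). Caprin1 lies near -2.5 in both tissues at 6 months and near 0 in the cortex at 24 hr, and Homer2 and Rasgrf2 are above 0 in both tissues at 6 months.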

How the data were processed

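The scanner files held one-colour Agilent Feature Extraction 11.5.1.1 spot data, in which the intensity of each probe had been background-subtracted and detrended by the authors' scanner software before they were deposited. Here the processed signal of 45598 probes was converted to log2 and centred on the array median, as the study's methods name, so deposited intensity became a log2 level. A deposited value table of the whole series held a linear ratio, each signal divided by a constant of its array near the 75th percentile; it served as an alternative, and 24 of its columns were not used here. Its columns carry the authors' normalization, its lowest value is 0.01, and its scale and direction were found by setting it against the signals. Probes well above background on every array of at least one group compared were tested. limma 3.58.1 (R 4.3.3) was fitted to the 12 cortical arrays of the 6 month interval, with 4 independent rats per group, and to 24 arrays for each difference between intervals or tissues. Gene names came from a RefSeq table and covered 46.3% of probes. For each gene the probe with the highest mean was used. Named genes were the 15 largest differences in each direction among genes past the thresholds whose groups did not overlap, list members past the thresholds, genes called under an alternative and leading genes of the differences between intervals. Genes and lists were chosen with earlier results of these data known. No mean signal column was used; the normexp alternative took the deposited median signal and median background intensity. Alternatives were another scaling, background, filter, replicate block, weights and leaving out each array.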

Additional observations from a re-analysis of the deposited data

Results flagged for a closer look

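In 9 of 98 groups of 4 arrays, 1 array lay apart from the other 3 by more than Dixon's 95% critical value, which chance exceeds in about 1 in 20 groups. The gap, as a share of the range of the group, was 0.904 for naive replicate 3 of Ntf3, 0.995 for naive replicate 4 of Vwce, 0.87 for sham replicate 4 of Slc7a9, 0.858 for naive replicate 4 and 0.884 for sham replicate 1 of Kif20b, 0.83 for naive replicate 4 of Tnfsf13b, 0.849 for naive replicate 2 of Adra1d, 0.837 for sham replicate 1 of Trmt13 and 0.838 for naive replicate 1 of Hspa1a.

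The sham effect at 6 months differed from that at 24 hr by a limma interaction test in 842 probes, among them Anp32a by 1.49, Misp3 by 1.25 and Krt2 by 1.52 log2 units. It differed from that at 1 year in 655 probes, among them Misp3 by 1.26, Caprin1 by -2.88, Cep95 by -1.57, Cyp4a8 by -1.27, P2rx4 by -1.6, Fam89a by -1.17, Rc3h2 by -0.636 and Trmt13 by -0.506. Cep95 and Fam89a were detected on 1 and 2 of the 4 sham arrays at 6 months, so their values are no exact sizes. The effect differed from that in the hippocampus in 122 probes.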

How the results depend on the processing

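Probes with an adjusted p under 0.05 between sham and naive cortex numbered 0 in the form reported, 3 at the 75th percentile, 2 after quantile normalization, 3 with the authors' values, 24 with normexp, 13 with the methods' filter and within-50% rule, 3 with only the groups compared, 112 with array weights and 0 to 14 with 1 array left out. The count past the thresholds was 767, with 378 for normexp, 2205 without a filter (1248 higher and 957 lower), 493 with the methods' filter, 433 with that filter and the within-50% rule, and 679 to 959 with 1 array left out. The difference from 24 hr passed in 79 probes at the 75th percentile, 30 after quantile normalization, 90 with the authors' values, 199 with normexp, 7 without a filter, 1287 with only the groups compared, 12 with the replicate block, 2946 with array weights and 141 to 1351 with 1 array left out. The difference from 1 year passed in 4796 with normexp, 1036 without a filter, 2313 with array weights and 432 to 1006 with 1 array left out. The difference from the hippocampus passed in 1280 at the 75th percentile, 871 after quantile normalization, 1290 with the authors' values, 709 with normexp, 3 without a filter, 43 with the methods' filter, 41 with only the groups compared, 77 with the replicate block, 0 with array weights, 149 with a block by animal number and 24 to 910 with 1 array left out. Lists at least 0.1 from all genes numbered 16, 10 with normexp and 10 to 21 with 1 array left out. The difference in detection, -2.03 percentage points, ran from -3.52 to -0.68 with 1 array left out. Apart from fewer tested probes under the filters, the causes were not tested.

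Replicate numbers are slide positions here. Deviations of arrays with the same number correlated at 0.11, -0.14, 0.04 and -0.002 across probes. Detection nevertheless followed position in both groups, at 55.4%, 56.9%, 58.9% and 51.1% for positions 1 to 4 on the naive arrays. On the sham arrays it was 52.9%, 54.3%, 57.5% and 49.5%. The replicate block left 0 probes with an adjusted p under 0.05 and 757 past the thresholds. The scaling with the block, and the block by animal number, were chosen after seeing the data. Caprin1 had an adjusted p of 0.0182 to 0.366 over 22 settings and was under 0.05 in 4 of them, and Anp32a in 3. Of the genes named, 48 were recomputed in each setting that tested them, namely those with the largest differences, those called under an alternative and list members past the thresholds, and 0 of these 48 changed sign, which their choice largely fixes. Of the 48 lists, 17 kept the sign of their median in all settings and with each array left out. With the block the 6 genes named for the difference from 24 hr had adjusted p of 0.0517 to 0.0703. The number of arrays limits the precision, and for dim probes the signal was close to background.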
